A study of Saccharomyces cerevisiae with 4 samples.

Results

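The genes of sulfate assimilation and of methionine, cysteine and S-adenosylmethionine (SAM) metabolism were measured in budding yeast (*Saccharomyces cerevisiae*) lacking *ESL1* and *ESL2*, against the wild-type strain. The set was listed by gene name and pathway role and held 35 of the 6256 genes represented on the array. All 35 were identified by their open reading frames, each by 1 probe, and all 35 were measured in every biological replicate, as were 6254 genes overall. Both strains were *MATa* and *RAD5* (Y52, in the W303-1A background), with the marker alleles *trp1-1*, *ura3-1*, *ade2-1* and *can1-100* as well as *leu2-3, 122*, and the double mutant also carried *esl1∆::KAN* and *esl2∆::NAT*, in which drug-resistance cassettes take the place of both genes. Cultures were harvested in log phase in YPD, a rich medium of 1% yeast extract, 2% peptone and 2% glucose, at 30°. RNA of both strains was hybridized together on each 2-color array, for 3 biological replicates on 3 arrays, and the RNA of replicate 3 was hybridized again with the dyes exchanged, so that its 2 arrays were averaged and counted as 1 replicate. All 4 arrays shared 1 slide. The labels call the replicates biological but do not say whether the mutant cultures came from separate isolates, so the p-values refer to these 3 pairs of cultures. The spread behind them includes differences between arrays, and for each gene it was drawn toward the spread over all genes. In bulk RNA of this kind, fewer cells expressing a gene and less RNA per cell cannot be told apart.

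Yeast cells take up sulfate, activate it with ATP, reduce it through sulfite to sulfide, and join the sulfide to *O*-acetylhomoserine to make homocysteine. Homocysteine is methylated to methionine, which is converted to SAM, the methyl donor of the cell, and it also exchanges sulfur with cysteine through the transsulfuration enzymes. Most genes of sulfate reduction are known to be transcribed through the activator Met4, which is brought to DNA by Cbf1, Met31 and Met32 with the help of Met28 and is restrained through the ubiquitin ligase subunit Met30 when methionine and cysteine are plentiful. In rich medium, which supplies both amino acids, the pathway is not needed for growth.

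The targeted genes were low in every mutant sample. The log2 ratio of *esl1Δ esl2Δ* over wild-type, where 1 is 2-fold higher in the mutant and −1 is 2-fold lower, lay between −4.77 and −4.33 for *ESL1* and between −3.99 and −3.65 for *ESL2* over the 3 replicates (limma, Benjamini-Hochberg adjusted p = 0.00104 for both). Median signals of gene spots were 1660.0 to 3378 in the green (Cy3) channel and 3990.5 to 5186 in the red (Cy5) channel, against background medians of 22 to 49.5, and the share of gene spots well above background was 92.4 to 98%. Replicates 1 and 2 correlated more closely with each other over all genes (Pearson r = 0.681) than either did with replicate 3 (r = 0.102 and 0.214), while both arrays of replicate 3 correlated at 0.844. Replicates 1 and 2 share their dye orientation, whereas replicate 3 averages both orientations. With the first array of replicate 3, in the shared orientation, their r was 0.160 and 0.292. With its dye swap r was 0.032 and 0.114. The part of dye in these correlations was not tested. These are correlations across genes, which are not independent replicates. All 7 markers of MATa cells were well above background in both strains on every array, and of 4 markers of MATα cells, *STE3* and *SAG1* were as well, whereas the pheromone genes *MF(ALPHA)1* and *MF(ALPHA)2* were so on 3 or fewer of the 4 arrays in each strain. *STE3* was dim, with normalized signals of 155 to 264. Of the 7 MATa markers, 5 were lower in the mutant in all 3 replicates and 1 was higher, beside 18.5% and 18.7% of all genes. Whether these marker signals bear on the sulfur genes was not tested.

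No sulfur gene passed the test over all genes. By limma with Benjamini-Hochberg adjustment, 0 of 35 had an adjusted p below 0.05, beside 0.112% of all genes (7 of 6254), and the lowest adjusted p in the set was 0.259. At an unadjusted p below 0.05 there were 4 of 35 (*MHT1*, *STR3*, *STR2* and *MMP1*), beside 13.3% of all genes. The count of 0 with an adjusted p below 0.05 was also found on the logarithmic ratios of the scanner software, where 0.016% of all genes passed. Likewise 0 of 35 had a mean log2 ratio past 2-fold in either direction (0.799% of all genes), and 1, *MHT1*, was past 1.5-fold higher in the mutant (2.45% of all genes). By sign, 7 of 35 were lower in *esl1Δ esl2Δ* cells in all 3 replicates (*MET8*, *STR2*, *STR3*, *SAM4*, *MET4*, *CBF1* and *SAH1*, of which *SAH1* had a mean above 0 with median centring of the arrays), beside 18.5% of all genes. Of these, *MET4*, *CBF1* and *SAH1* were above 0 on the dye swap of replicate 3 alone. In the other direction 3 were higher in all 3 (*MHT1*, *MMP1* and *MET32*), beside 18.7%. The other 25 of 35 differed in sign between replicates, as did 3930 of 6254 genes. In replicates 1, 2 and 3, 21, 14 and 24 of 35 were lower in the mutant, beside 49.8%, 50.9% and 49.9% of all genes. Over the 35 genes the mean log2 ratios had a median of −0.076, with an interquartile range of −0.17 to 0.16, and over all genes a median of −0.0049, with an interquartile range of −0.13 to 0.14. The median of the 35 was above 0 without replicate 3 (0.034) and with median centring (0.0053). Without replicate 3, 3 of 35 (*MET3*, *MHT1* and *MMP1*, all higher in the mutant) had an adjusted p below 0.05 by limma, beside 9.63% of all genes, and *MHT1* was past 2-fold. Every array left in that fit had the mutant in Cy5, so strain and dye cannot be told apart in it.

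**Figure D1:**
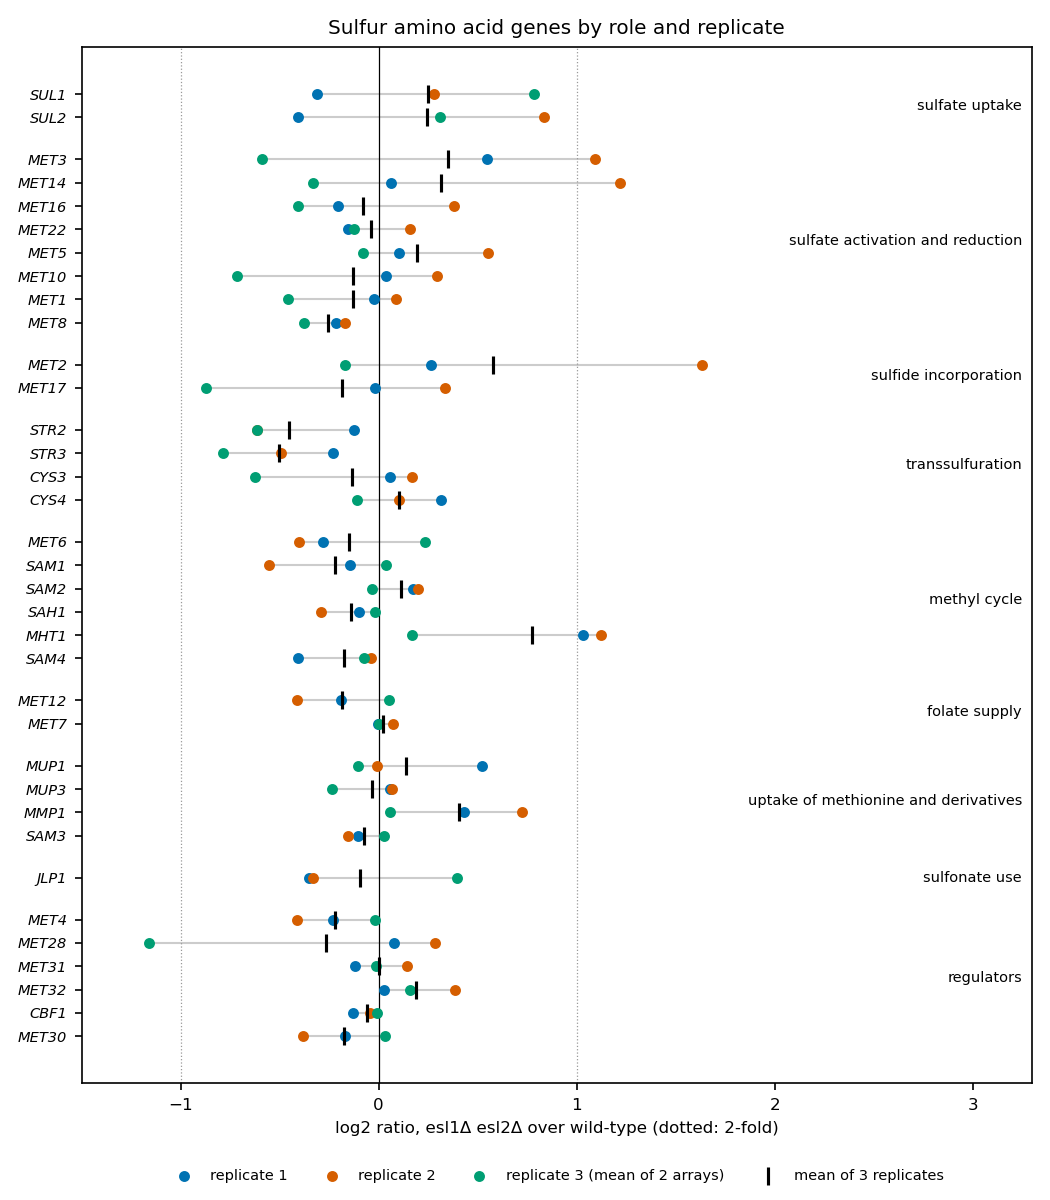
Log2 ratio of *esl1Δ esl2Δ* over wild-type (horizontal axis) for each of the 35 genes (rows, ordered by role), with 1 point per biological replicate, a grey line for the range and a black bar for the mean of 3 replicates. No mean lies past the dotted 2-fold lines, and the widest ranges belong to *MET2*, *MET3*, *MET14* and *MET28*, whose replicates lie on both sides of 0.

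Sulfate enters the cell through the permeases Sul1 and Sul2, and both genes were lower in the mutant in replicate 1 and higher in replicates 2 and 3. Where 3 log2 ratios are given for a gene, they are those of replicates 1, 2 and 3 in that order, and a value on the dye swap is that of the second array of replicate 3 alone. *SUL1* (YBR294W, chromosome II) had log2 ratios of −0.31, 0.28 and 0.78 (0.76 on the dye swap), averaging 0.25 ± 0.55 (SD, n = 3). *SUL2* (YLR092W, chromosome XII) had log2 ratios of −0.41, 0.83 and 0.31 (0.34 on the dye swap), averaging 0.25 ± 0.62 (SD, n = 3). For both genes the values on either side of 0 gave a spread larger than the mean (limma, adjusted p = 0.669 for *SUL1* and 0.702 for *SUL2*). The signals of *SUL1* were dim. Its mutant signals were 244, 186 and 245 in replicates 1, 2 and 3 and 243 on the dye swap, and its wild-type signals on these arrays were 303, 154, 140.3 and 143. It was the only gene of the 35 that was not well above background in both strains on all 4 arrays, being so on 3 of 4 arrays in wild-type. Signals here are intensities after normalization within and between arrays, in arbitrary units, and are compared only between strains and arrays for the same probe. A signal given for replicate 3 is that of its first array, whereas its log2 ratio averages both arrays.

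Of the 8 genes of sulfate activation and reduction, 7 were higher in the mutant in replicate 2 and all 8 were lower in replicate 3. Their products run from ATP sulfurylase to sulfite reductase and the making of its siroheme cofactor. The median of their log2 ratios was 0.0064 in replicate 1, 0.34 in replicate 2 and −0.39 in replicate 3. Of all genes, 50.9% were lower in the mutant in replicate 2 and 49.9% in replicate 3. The medians over all genes were 0.0012, −0.0078 and 0.00097 in replicates 1, 2 and 3. The exception among the 8 genes in replicate 2 was *MET8*. *MET3* (YJR010W, chromosome X) encodes ATP sulfurylase, which carries out the first step of the activation of sulfate. Its log2 ratios were 0.54, 1.09 and −0.59, with −0.56 and −0.61 on the first array and the dye swap of replicate 3, averaging 0.35 ± 0.86 (SD, n = 3, limma adjusted p = 0.680). *MET14* (YKL001C, chromosome XI) encodes adenylylsulfate kinase, which phosphorylates the activated sulfate. Its log2 ratios were 0.061, 1.22 and −0.33 (−0.51 on the dye swap), and its mean was 0.32 ± 0.80 (SD, n = 3, limma adjusted p = 0.694). In replicate 2 both genes were past 2-fold higher in the mutant, and in replicate 3 both were lower.

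The genes downstream of activation had smaller ratios than these in replicate 2. *MET16* (phosphoadenylylsulfate reductase) had log2 ratios of −0.21, 0.38 and −0.41, and *MET22*, the phosphatase that clears the nucleotide by-product of that step, had log2 ratios of −0.15, 0.16 and −0.13. The sulfite reductase subunits were *MET5*, at 0.10, 0.55 and −0.080, and *MET10*, at 0.037, 0.30 and −0.72. Of the siroheme genes, *MET1* had −0.024, 0.089 and −0.46. *MET8* (YBR213W, chromosome II) was the lowest of the group by mean and had the same sign throughout, at −0.22, −0.17 and −0.38 (−0.30 on the dye swap), with a mean of −0.25 ± 0.11 (SD, n = 3) and a limma adjusted p of 0.395. All 8 genes had their lowest mutant-over-wild-type ratio in replicate 3 except *MET22*, which was lowest in replicate 1.

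Both genes of sulfide incorporation followed the order of the reductive genes, with larger ratios for *MET2* in replicate 2. *MET2* (YNL277W, chromosome XIV) encodes homoserine *O*-acetyltransferase, which makes the acceptor of sulfide, and its log2 ratios were 0.27, 1.63 and −0.17 (−0.19 on the dye swap). Its mean of 0.58 ± 0.94 (SD, n = 3) was the second highest of the set and its SD the largest (limma, adjusted p = 0.532). The mean rested on replicate 2, being 0.047 without it and 0.95 without replicate 3. *MET17* (YLR303W, chromosome XII) encodes *O*-acetylhomoserine sulfhydrylase, which joins sulfide to that acceptor. It had log2 ratios of −0.019, 0.33 and −0.87, with −1.05 on the first array of replicate 3 and −0.70 on its dye swap, averaging −0.19 ± 0.62 (SD, n = 3, limma adjusted p = 0.772). The median of the pair was 0.12 in replicate 1, 0.98 in replicate 2 and −0.52 in replicate 3.

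When the signals of the strains were read apart, the wild-type signals of most of these genes differed more between arrays than the mutant signals did. *MET2* had signals of 4141, 3588 and 2986 in *esl1Δ esl2Δ* cells in replicates 1, 2 and 3, against 3443, 1158 and 3309 in wild-type, so that the wild-type of replicate 2 lay apart from the other cultures. The signals of *MET14* were 10198, 11396 and 8145 in the mutant, against 9775, 4902 and 9035 in wild-type, again with the wild-type of replicate 2 lowest. For *MET3* the mutant signals were 5671, 2482 and 2735 and the wild-type signals 3888, 1165 and 4039, so here the mutant also ranged more than 2-fold, with replicate 1 highest. The mutant and wild-type signals on the dye swap of replicate 3 were 2859 and 3272 for *MET2*, 6945 and 9888 for *MET14*, and 2777 and 4246 for *MET3*. *MET17* had signals of 76802, 68637 and 76141 in the mutant, against 77812, 54452 and 157626 in wild-type. For *MET17* it was the wild-type of replicate 3 that stood high, and on its dye swap the signals were 74297 in the mutant and 120282 in wild-type. The SD of the log2 signal over the 3 replicates was larger in wild-type than in the mutant for 9 of these 10 genes and for 26 of 35 in the whole set (74.3%), beside 62.3% of all genes. The strains were closer for *MET16* (SD of 0.63 in the mutant and 0.74 in wild-type), *MET5* (0.52 and 0.65), *MET8* (0.46 and 0.53) and *MET22* (0.20 and 0.33). *MET1* was the exception, at 0.41 in the mutant and 0.27 in wild-type. Because wild-type RNA was in Cy3 on 3 of the 4 arrays, strain and dye cannot be told apart in these SDs and counts, other than through the dye swap of replicate 3.

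**Figure D2:**
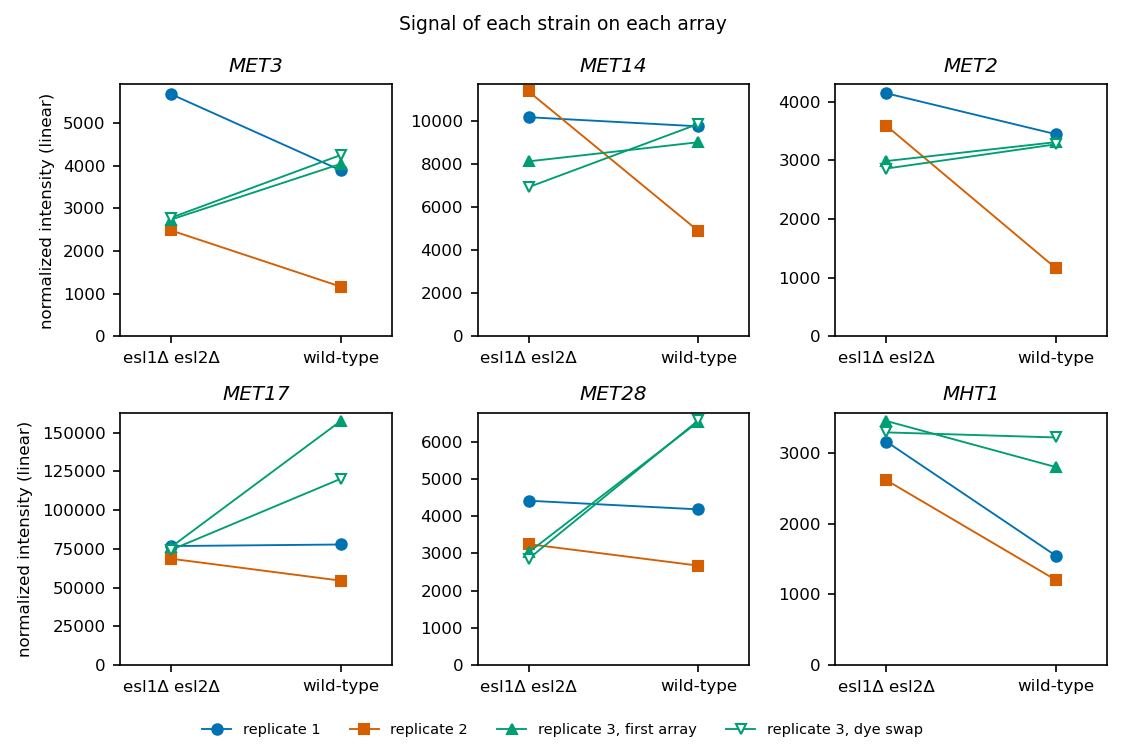
Normalized intensity (vertical axis, linear, arbitrary units) of 6 genes in *esl1Δ esl2Δ* and in wild-type on each array, with a line joining both strains of an array. The mutant signals of *MET2*, *MET17* and *MET28* lie closer together than the wild-type signals, which are low in replicate 2 for *MET2* (1158) and high in replicate 3 for *MET28* (6539).

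Joined into 1 group of 10, a step taken after the values were seen, the reductive and incorporating genes had their highest log2 ratio in replicate 2 in 10 of 10 cases, beside 30% of all genes, and their lowest in replicate 3 in 9 of 10, beside 41.1% of all genes. Since these genes are known to share regulators and the group was formed on this pattern, the counts are a description. In the whole set 21 of 35 genes were highest in replicate 2 and 18 were lowest in replicate 3, and 15 of 35 had both (42.9%), beside 20.3% of all genes. The labels do not say how the replicates were numbered, so the numbers are used only to mark which pair of cultures was which. Past 2-fold in replicate 2 were *MET3*, *MET14*, *MET2* and *MHT1*, all higher in the mutant (1.65% of all genes). In replicate 3 only *MET28* was past 2-fold, lower in the mutant (0.704% of all genes), and in replicate 1 only *MHT1*, higher (0.496%). At 1.5-fold, 7 of 35 were lower in the mutant in replicate 3 (*MET3*, *MET10*, *MET17*, *STR2*, *STR3*, *CYS3* and *MET28*), beside 3.92% of all genes, and 6 of 35 were higher in replicate 2, beside 6.83%.

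**Figure D3:**
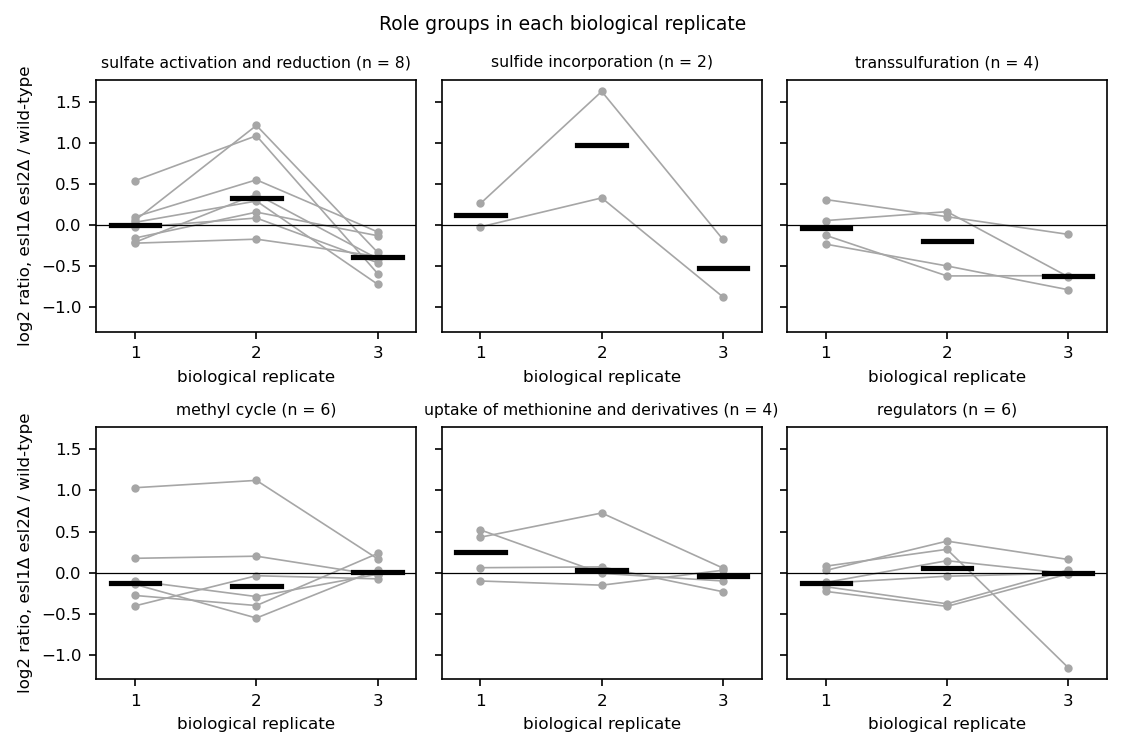
Log2 ratio of *esl1Δ esl2Δ* over wild-type (vertical axis) in each biological replicate (horizontal axis, numbers as labeled) for 6 role groups, with a grey line per gene and a black bar for the group median. The medians of activation and reduction are highest in replicate 2 (0.34) and lowest in replicate 3 (−0.39), whereas those of the methyl cycle stay between −0.17 and 0.0087.

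The 7 genes past 1.5-fold lower in the mutant in replicate 3 were below 0 with both dye orientations. They were picked on the mean of those 2 arrays, so their shared sign is a description and no check on dye. The 2 arrays of replicate 3, which hold the same RNA, differed by a median of 0.10 in log2 ratio over the 35 genes. The largest difference among the 35 was 0.50, and the median over all genes was 0.15. *MET28* had −1.11 with the mutant in Cy5 and −1.20 with the mutant in Cy3, *MET10* had −0.70 and −0.73, and *STR3* had −0.85 and −0.72. The methionine synthase gene *MET6* differed most between the 2 arrays, at −0.020 and 0.48. Of the genes below 0 in replicate 3, *MUP1*, *SAM2*, *SAH1*, *CBF1* and *MET4* were above 0 on its dye swap. *MET7* and *MET31* were above 0 on its first array. Of the genes above 0 in replicate 3, *MET6*, *SAM1*, *MET12* and *SAM3* were below 0 on its first array, and *MET30* on its dye swap. Replicates 1 and 2 were hybridized in 1 dye orientation only, so their ratios have no such comparison.

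**Figure D4:**
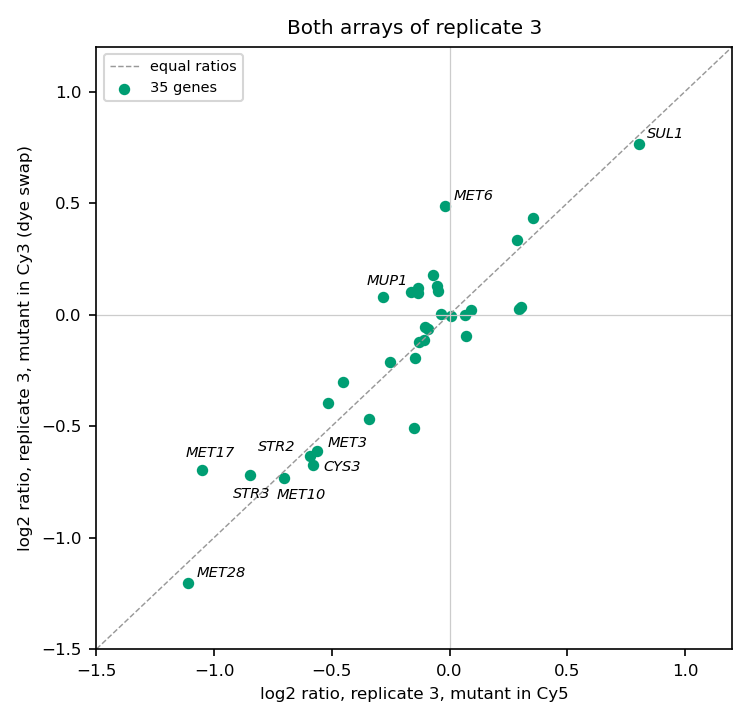
Log2 ratio of *esl1Δ esl2Δ* over wild-type for the 35 genes on both arrays of replicate 3, with the mutant in Cy5 (horizontal axis) or in Cy3 (vertical axis), and a dashed line for equal ratios. *MET28* was lowest on both arrays (−1.11 and −1.20), and *MET6* lies farthest from the line.

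Of the transsulfuration genes, which carry sulfur between homocysteine and cysteine, those of one direction were lower in the mutant in all 3 replicates. *STR3* (YGL184C, chromosome VII) encodes cystathionine β-lyase, which releases homocysteine. Its log2 ratios were −0.23, −0.50 and −0.78, averaging −0.50 ± 0.28 (SD, n = 3), the lowest of the 35 genes (limma, unadjusted p = 0.0138, adjusted p = 0.264). *STR2* (YJR130C, chromosome X), encoding cystathionine γ-synthase of the same branch from cysteine to homocysteine, had log2 ratios of −0.12, −0.62 and −0.61, averaging −0.45 ± 0.28 (SD, n = 3, limma unadjusted p = 0.0220, adjusted p = 0.295). *STR3* signals were 887, 622 and 731 in the mutant and 1039.9, 876 and 1317 in wild-type, with the strains overlapping across replicates but not within any array. On the dye swap the *STR3* signals were 840 in the mutant and 1385 in wild-type. The opposite branch, from homocysteine to cysteine, differed in sign between replicates. *CYS3* (cystathionine γ-lyase) had log2 ratios of 0.058, 0.17 and −0.63. *CYS4* (YGR155W, chromosome VII), encoding cystathionine β-synthase, had log2 ratios of 0.31, 0.11 and −0.11 (−0.11 on the dye swap), averaging 0.10 ± 0.21 (SD, n = 3, limma adjusted p = 0.752). All 4 genes had their lowest mutant-over-wild-type ratio in replicate 3 except *STR2*, whose values in replicates 2 and 3 were nearly equal.

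In the methyl cycle, which turns homocysteine into methionine and SAM and recovers it, *MHT1* had the highest mean ratio of 6 genes and *SAM1* the lowest. *MHT1* (YLL062C, chromosome XII) encodes *S*-methylmethionine–homocysteine methyltransferase, which makes methionine from imported *S*-methylmethionine. Its log2 ratios were 1.03, 1.12 and 0.17, with 0.30 on the first array and 0.032 on the dye swap of replicate 3. The mean of 0.77 ± 0.53 (SD, n = 3) was the highest of the set and ranked 54 from the top of 6254 genes (limma, unadjusted p = 0.0132, adjusted p = 0.259). Signals of *MHT1* were 3163, 2617 and 3455 in *esl1Δ esl2Δ* cells in replicates 1, 2 and 3, against 1545, 1201 and 2801 in wild-type. On the dye swap they were 3293 in the mutant and 3221 in wild-type. The mutant cultures thus lay close together, and the smaller ratio of replicate 3 went with a wild-type signal that was above those of the other wild-type cultures.

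*SAM4* (YPL273W, chromosome XVI), which encodes the related methyltransferase that uses SAM, did not share the direction of *MHT1*, with log2 ratios of −0.41, −0.038 and −0.076 (−0.062 on the dye swap), averaging −0.17 ± 0.20 (SD, n = 3, limma adjusted p = 0.580). The SAM synthetase genes are near-identical paralogs, and cross-hybridization between their probes was not tested. *SAM1* (YLR180W, chromosome XII) had log2 ratios of −0.14, −0.55 and 0.037 (0.13 on the dye swap), averaging −0.22 ± 0.30 (SD, n = 3, limma adjusted p = 0.558). *SAM2* (YDR502C, chromosome IV) had log2 ratios of 0.17, 0.20 and −0.032 (0.10 on the dye swap), averaging 0.11 ± 0.13 (SD, n = 3, limma adjusted p = 0.691). The paralogs had opposite signs in replicates 1 and 2. On each array of replicate 3 they shared their sign, both being below 0 on the first array (−0.053 for *SAM1* and −0.16 for *SAM2*) and above 0 on the dye swap. *MET6*, the methionine synthase, had log2 ratios of −0.28, −0.40 and 0.23, and *SAH1*, which clears *S*-adenosylhomocysteine, had −0.10, −0.29 and −0.020. For folate supply, *MET7* (folylpolyglutamate synthetase) had the smallest SD of the set, with log2 ratios of −0.0049, 0.074 and −0.00018 (−0.0084 on the dye swap), averaging 0.023 ± 0.044 (SD, n = 3). *MET12* (YPL023C, chromosome XVI), a methylenetetrahydrofolate reductase, had log2 ratios of −0.19, −0.41 and 0.054 (0.18 on the dye swap), averaging −0.18 ± 0.23 (SD, n = 3), next to −0.57, −1.16 and −0.58 for its isozyme gene *MET13*, which is not among the 35.

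Among the permeases for methionine and its derivatives, that for *S*-methylmethionine had the highest mean ratio and that for SAM the lowest. *MMP1* (YLL061W, chromosome XII) encodes the *S*-methylmethionine permease and had log2 ratios of 0.43, 0.73 and 0.055 (0.019 on the dye swap), averaging 0.40 ± 0.34 (SD, n = 3, limma unadjusted p = 0.0448, adjusted p = 0.362). It was higher in the mutant in all 3 replicates, as were *MHT1* and *MET32* and no other gene of the set. *MMP1* and *MHT1* lie next to each other on chromosome XII with 0 annotated genes between them and are transcribed away from each other, on opposite strands. *SAM3* (YPL274W, chromosome XVI), the SAM permease gene, lies beside *SAM4* with 0 genes between, and had log2 ratios of −0.10, −0.15 and 0.028 (0.11 on the dye swap), averaging −0.076 ± 0.094 (SD, n = 3, limma adjusted p = 0.784). The methionine permease genes were *MUP1* (high affinity), at 0.52, −0.0094 and −0.10, and *MUP3* (low affinity), at 0.059, 0.069 and −0.23. *JLP1* (YLL057C, chromosome XII), encoding the sulfonate dioxygenase that lets cells use sulfonates, lies 2 genes from *MMP1* and had log2 ratios of −0.35, −0.33 and 0.39 (0.43 on the dye swap), averaging −0.10 ± 0.43 (SD, n = 3, limma adjusted p = 0.842).

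Of the 6 regulators, *MET28* alone had a ratio past 2-fold in any replicate. *MET28* (YIR017C, chromosome IX), the leucine zipper protein that steadies the Met4 complex on DNA, had log2 ratios of 0.078, 0.28 and −1.16, averaging −0.27 ± 0.78 (SD, n = 3, limma adjusted p = 0.734). Its signals were 4414, 3248 and 3026 in the mutant, against 4181, 2669 and 6539 in wild-type, with the wild-type of replicate 3 above all other cultures. On the dye swap they were 2853 in the mutant and 6577 in wild-type. *MET28* had its highest ratio in replicate 2 and its lowest in replicate 3, the order seen for most reductive genes. *MET4*, the activator itself, was lower in the mutant in all 3 replicates, with log2 ratios of −0.23, −0.41 and −0.017, averaging −0.22 ± 0.20 (SD, n = 3, limma adjusted p = 0.498). *CBF1*, which binds DNA for the complex, was likewise below 0 in all 3, with a mean of −0.061 ± 0.062 (SD, n = 3), but its replicate 3 value averaged −0.13 on the first array and 0.12 on the dye swap. Neither gene reached 1.5-fold in any replicate. Among the zinc finger paralogs, *MET31* (YPL038W, chromosome XVI) had log2 ratios of −0.12, 0.14 and −0.013 (−0.10 on the dye swap), averaging 0.0039 ± 0.13 (SD, n = 3, limma adjusted p = 0.991). *MET32* (YDR253C, chromosome IV) had log2 ratios of 0.026, 0.38 and 0.16 (0.026 on the dye swap), averaging 0.19 ± 0.18 (SD, n = 3, limma adjusted p = 0.537). The paralogs had the same sign only in replicate 2. *MET30*, the ubiquitin ligase subunit, had log2 ratios of −0.17, −0.38 and 0.032.

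Many of the sulfur genes varied widely between replicates. The median SD of the log2 ratio over 3 replicates was 0.29 for the 35 genes and 0.20 for all genes, and 15 of 35 had an SD above the upper quartile of all genes (25% by definition). These were both sulfate permeases, 4 of 8 genes of activation and reduction, both of sulfide incorporation, 1 of 4 of transsulfuration, 2 of 6 of the methyl cycle, 2 of 4 of amino acid uptake, *JLP1* and 1 of 6 regulators. The spread limits what the mean ratios can show: the 95% confidence interval of the mean, from limma, lay within 2-fold of equality for 30 of 35 genes, beside 94.6% of all genes. It reached past 2-fold for *MET2* (−0.31 to 1.46), *MET3* (−0.46 to 1.16), *MET14* (−0.45 to 1.08), *MET28* (−1.01 to 0.48) and *MHT1* (0.24 to 1.31). A 2-fold difference thus lies within the interval of each. That of *MHT1* lay above 0, but these intervals are not adjusted for the number of genes. Across the 35 genes the log2 ratios of replicates 1 and 2 correlated at 0.563, those of replicates 1 and 3 at −0.15 and those of replicates 2 and 3 at −0.039, each over genes, which are not independent. Here too replicates 1 and 2 share their dye orientation, whereas replicate 3 averages both orientations.

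**Figure D5:**
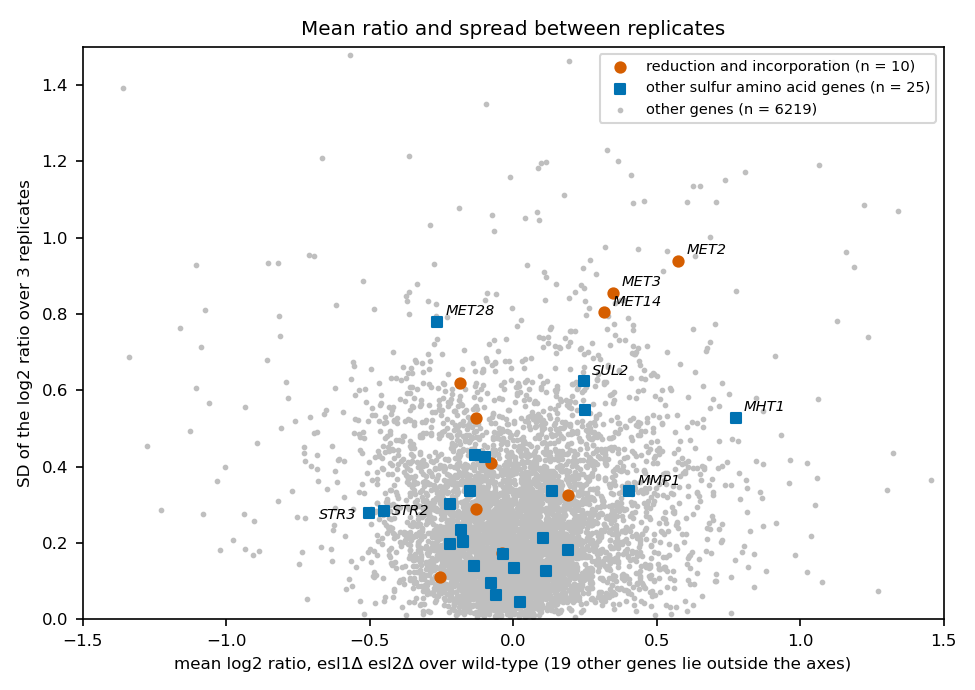
Mean (horizontal axis) and SD (vertical axis) of the log2 ratio of *esl1Δ esl2Δ* over wild-type over 3 replicates, for the 10 genes of reduction and incorporation, the 25 other sulfur amino acid genes and the other genes on the array, of which 19 lie outside the axes. *MET2*, *MET3* and *MET14* have SDs of 0.80 to 0.94, whereas *MHT1*, *STR2* and *STR3* have the means farthest from 0 next to *MET2*.

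Genes of neighboring pathways were read from a list of 32, all measured, which covers the supply of homoserine, polyamine synthesis and the methionine salvage cycle, glutathione, the uptake of cysteine and other sulfur compounds, and the thioredoxins that serve sulfate reduction. By limma, 0 of 32 had an adjusted p below 0.05 and 0 were past 2-fold, beside 0.112% and 0.799% of all genes. At an unadjusted p below 0.05 by limma there were 7 of 32, beside 13.3% of all genes. Lower in the mutant in all 3 replicates were 10 of 32, and 3 were higher, beside 18.5% and 18.7% of all genes. *MET13*, the main methylenetetrahydrofolate reductase gene, was the lowest by mean, at −0.77 ± 0.34 (SD, n = 3, limma adjusted p = 0.191). Its dye swap gave −0.33.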

How the data were processed

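Total RNA of both strains was extracted with hot phenol, and 500 ng was labeled with Cy3 or Cy5 and hybridized to 2-color arrays. Median foreground and background intensities of each spot, in both channels, were deposited by the authors as scanned with Agilent Feature Extraction 10.1.1.1, together with spot flags. The log10 ratios deposited by the authors, in the array files and in the series table, hold the same values and were used only as alternatives. The study's own analysis was run in GeneSpring, with settings not given in the sources used here.

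Intensities were background-corrected with normexp (offset 50) and normalized by loess within each array in limma 3.58.1 (R 4.3.3), with the 536 control spots per array at weight 0 and then left out, and outlier spots left out. Spots of a probe were averaged, the dye swap was turned in sign, and both arrays of replicate 3 were averaged. The signals of single strains were read from the same arrays after Aquantile normalization. Ratios were tested against 0 with lmFit and eBayes, two-sided, with Benjamini-Hochberg adjustment over 6254 genes. The fit was first run on simulated data with noise drawn independently for each replicate, which does not measure how it performs on these arrays. Because both strains share each array, the ratio pairs them by design. Probes were named through open reading frames in the R64 reference gene table (5756 matched, 500 not). Array coordinates follow an older build and are not used here.

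The genes and lists were chosen with earlier results of these data known. Full values are given for genes past 1.5-fold, the highest and lowest of each role group, the 3 with the largest SD, and paralog pairs, and other values describe the remaining genes. Normalization by loess assumes that most genes do not differ between strains at each intensity, and saturation was found at 0 gene spots. The number of arrays limits the precision. Promoter motifs were not analysed here.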

Additional observations from a re-analysis of the deposited data

How the results depend on the processing

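With limma and Benjamini-Hochberg adjustment, 0 of the tested sulfur genes had an adjusted p below 0.05 under every alternative that kept all 3 replicates: other background correction, median centring, the scanner software's ratios, a filter on dim probes (34 of 35 genes tested), outlier spots kept, the median over spots, replicate 3 from either array alone, and separate channels with no replicate block (0 of 35). Leaving out each replicate in turn gave 0 to 3 genes with an adjusted p below 0.05 and 0 to 1 past 2-fold higher. The 3 were found without replicate 3, when 602 of 6254 genes passed: *MET3* at 0.82 (adjusted p = 0.0342), *MHT1* at 1.08 (adjusted p = 0.0108) and *MMP1* at 0.58 (adjusted p = 0.0396). Leaving out replicate 3 removes the dye swap, so strain and dye cannot be told apart in that fit. At a threshold of 1.5-fold, 1 gene was past it, higher. Over all genes, 1 to 11 passed with all replicates kept.

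The median log2 ratio of the methyl cycle was 0.062 with median centring and −0.21 to −0.038 when single replicates were left out. Other medians changed sign in these fits. That of the 35 genes was 0.0053 with median centring and −0.066 to 0.034 with single replicates left out, and the ranges were −0.19 to 0.13 for activation and reduction, −0.20 to 0.55 for sulfide incorporation and −0.059 to 0.16 for uptake of methionine and its derivatives. Median centring turned the sign for *MET22* (0.0015), *MET17* (0.050), *CYS3* (0.053), *SAH1* (0.14) and *SAM3* (0.0053), and the dye swap alone for replicate 3 turned it for *MET31* (−0.024). Leaving out single replicates turned the sign of 17 genes, with mean log2 ratios of −0.017 to 0.53 for *SUL1*, −0.048 to 0.57 for *SUL2*, −0.021 to 0.82 for *MET3*, −0.13 to 0.64 for *MET14*, −0.31 to 0.087 for *MET16* and −0.14 to 0.017 for *MET22*, of −0.34 to 0.17 for *MET10*, −0.24 to 0.032 for *MET1*, −0.45 to 0.16 for *MET17*, −0.28 to 0.11 for *CYS3*, −0.0026 to 0.21 for *CYS4* and −0.0025 to 0.037 for *MET7*, and of −0.056 to 0.26 for *MUP1*, −0.087 to 0.064 for *MUP3*, −0.34 to 0.030 for *JLP1*, −0.54 to 0.18 for *MET28* and −0.066 to 0.066 for *MET31*. Without a change of sign, *MET2* ranged from 0.047 to 0.95. No other alternative turned the sign of a gene or of these medians, and the cause was not tested.

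The order of replicates among the 10 genes of reduction and incorporation was recounted under the alternatives that keep 3 separate replicates, a check chosen after seeing the data. Highest in replicate 2 were 9 or 10 of 10 genes, and lowest in replicate 3 were likewise 9 or 10 of 10. Since the group was formed on this order in the same arrays, the recount describes the processing and is no test of the order. A fit with a dye term and a correlated block could not be fitted, since replicate 3 is the only one with both dyes. Mean foreground intensities were not used here, and motif counts were not run. With 3 replicates, a sign-flip test of a single gene cannot go below p = 0.25 (exact, two-sided).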
